A study of Arabidopsis thaliana with 6 samples.

Results

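The 7 genes examined here encode the MYB-type transcription factor *APL* (AT1G79430), the NAC transcription factors *NAC045* (AT3G03200), *NAC086* (AT5G17260), *NAC020* (AT1G54330), *NAC028* (AT1G65910) and *NAC057* (AT3G17730), and the exonuclease-domain protein *NEN4* (AT4G39810). They were chosen by locus code as factors of sieve element differentiation, with earlier results of these data known. All 7 were found among the 33602 genes of the deposited read count table. The counts came from RNA sequencing of *Arabidopsis thaliana* stem bases, with 3 libraries whose stems were labelled *smxl4 smxl5* and 3 whose stems were labelled wild type. Shoots of both groups had been grafted as seedlings onto wild-type roots, so both groups shared root genotype and grafting. Per the labels, both groups also shared the time on agar before grafting and the hours of light in short and long days. Each library pooled 3 fragments of 1 cm from plants 15 to 20 cm tall. The labels do not describe the mutant alleles, and the wild-type libraries carry separate titles although each of their descriptions gives replicate 1.

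Sieve elements are the conducting cells of the phloem, and they lose their nucleus as they mature while companion cells keep theirs and supply them. In the root tip *APL* is required for phloem identity, and it acts upstream of *NAC045* and *NAC086*, a redundant pair that drives the breakdown of the nucleus. The *NEN* genes, named as NAC045/086-dependent exonuclease-domain genes, include *NEN4*, which takes part in that breakdown. *SMXL4* and *SMXL5* are related genes that promote phloem formation.

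In the mutant-labelled stems all 7 genes fell, to between 27.8% and 52.3% of their mean wild-type level. *NAC086* fell the furthest, followed by *NAC057*, *NAC045* and *NEN4*, while *APL*, *NAC028* and *NAC020* each stood at about the same share of wild type, between 50.3% and 52.3%. No member had a mutant-labelled library at or above any wild-type library. Across the 20296 genes tested, 13.7% were called lower, 24.9% were called in either direction and 22.0% were lower with no overlap between the groups. As the members were chosen with earlier results of these data known, their count is only a description beside these shares. Because each library came from a whole stem segment, fewer sieve elements and less RNA per sieve element cannot be told apart.

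The sequences below are the 250 bases before the annotated start of *APL*, *NAC045*, *NAC086* and *NEN4*, shown because these genes form the order of action known from the root and moved in 1 direction here. They were read 5′ to 3′ on the strand of the gene from the RefSeq TAIR10.1 genome, and all 4 lie on the minus strand. The window of *APL* is chr1:29879280-29879529, that of *NAC045* is chr3:738630-738879, that of *NAC086* is chr5:5678176-5678425 and that of *NEN4* is chr4:18475805-18476054. Capitals mark AAAG on either strand, written CTTT where it lies on the other strand, the core bound by DOF transcription factors of the kind that act in early phloem.
APL: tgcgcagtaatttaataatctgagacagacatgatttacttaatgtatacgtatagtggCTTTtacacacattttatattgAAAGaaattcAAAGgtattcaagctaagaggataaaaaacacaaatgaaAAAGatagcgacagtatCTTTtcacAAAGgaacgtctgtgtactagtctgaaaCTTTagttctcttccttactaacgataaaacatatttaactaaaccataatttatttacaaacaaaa
NAC045: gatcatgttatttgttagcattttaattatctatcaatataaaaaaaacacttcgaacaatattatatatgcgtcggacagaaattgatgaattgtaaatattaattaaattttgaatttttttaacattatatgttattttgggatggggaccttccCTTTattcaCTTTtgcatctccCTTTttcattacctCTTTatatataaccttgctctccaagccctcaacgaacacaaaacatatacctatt
NAC086: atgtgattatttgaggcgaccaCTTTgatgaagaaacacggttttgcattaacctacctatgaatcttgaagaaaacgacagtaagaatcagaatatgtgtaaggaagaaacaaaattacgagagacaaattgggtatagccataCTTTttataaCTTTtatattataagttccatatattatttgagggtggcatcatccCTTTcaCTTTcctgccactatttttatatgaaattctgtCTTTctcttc
NEN4: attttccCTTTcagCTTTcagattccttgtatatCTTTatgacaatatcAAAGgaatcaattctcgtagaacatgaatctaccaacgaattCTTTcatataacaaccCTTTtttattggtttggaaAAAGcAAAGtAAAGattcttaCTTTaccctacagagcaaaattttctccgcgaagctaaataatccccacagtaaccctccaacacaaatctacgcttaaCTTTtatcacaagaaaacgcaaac

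*NEN4* held 11 such cores, *APL* 7, *NAC086* 6 and *NAC045* 4. The windows of the other members, not printed, held 10 in *NAC057*, 9 in *NAC028* and 5 in *NAC020*. Of 27443 windows of the same length before protein-coding genes, 98.0% held at least 1 core and the median was 4. As many as in *NEN4* occurred in 0.703% of them, as many as in *NAC057* in 1.54%, as many as in *NAC028* in 3.21% and as many as in *APL* in 13.6%. The counts in *NAC086*, *NAC020* and *NAC045* were reached by 24.3%, 39.4% and 58.3% of windows. In *NAC057* the cores that begin 113, 109 and 105 bases before the start abut each other. The member windows had a GC content between 28.0% and 34.0%, where the median of all windows was 31.2%. The palindromic letters GNATATNC, bound by MYB proteins related to *APL*, were in 0 of the 7 windows and in 5.46% of all windows. The letters CGTG on either strand, a NAC-binding core, occurred 2 times in *NAC028* and 1 time each in *NAC086* and *NAC057*, and 45.6% of all windows held them. These are matches of letters in a short window and show no binding.

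The libraries labelled *smxl4 smxl5* held 21364628 to 36133200 counts and those labelled wild type 33749559 to 49929595. *SMXL4* lay between 11.2 and 15.3 CPM (counts scaled to the normalized library total) in the mutant-labelled libraries and between 10.2 and 12.1 CPM in wild type, and *SMXL5* between 82.0 and 116 CPM against 97.5 and 112 CPM. Counts of the targeted genes were thus not lower on average under the mutant label and give no check of it, so each direction below is that of the libraries labelled mutant. Differences were tested with edgeR's quasi-likelihood test on all 20296 genes, and a gene was called at an adjusted p under 0.05. Fold changes are log2 values of mutant-labelled over wild type.

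**Figure D1:**
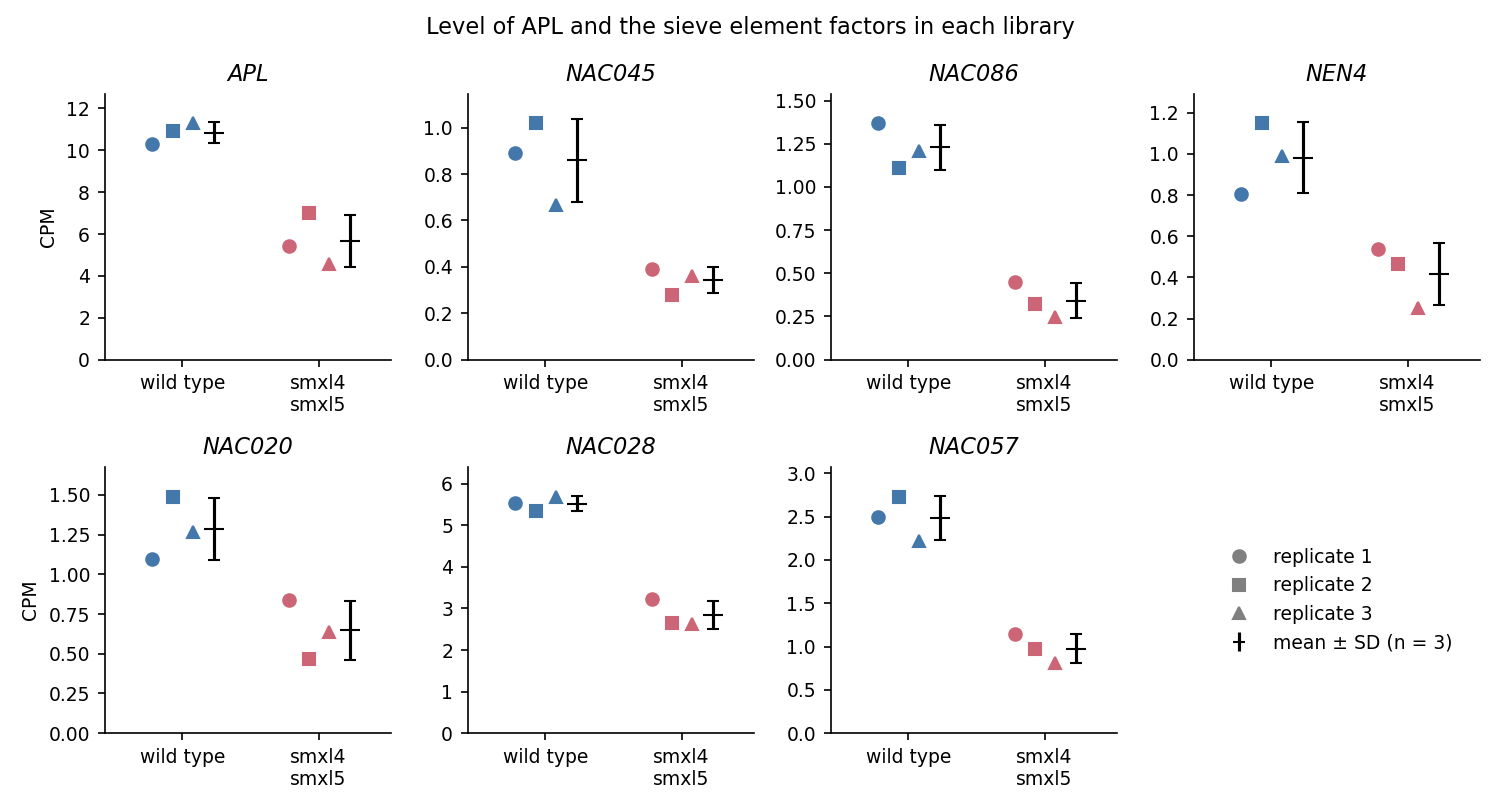
Level in CPM of each of the 7 genes, 1 panel a gene, with points for the 3 mutant-labelled and the 3 wild-type libraries and bars for the mean and SD of each group. In every panel the 3 mutant-labelled points lie below the 3 wild-type points, with *APL* at 4.55 to 7.02 against 10.3 to 11.3 CPM and *NAC086* at 0.249 to 0.449 against 1.11 to 1.37 CPM.

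*APL* (TAIR10.1 chromosome 1, 29877228 to 29879279, minus strand, 5 or 6 exons in 2 annotated transcripts) had 346, 493 and 559 counts in wild type replicates 1, 2 and 3 and 182, 151 and 164 counts in mutant-labelled replicates 1, 2 and 3. Scaled to library size these were 10.3, 10.9 and 11.3 CPM in wild type and 5.45, 7.02 and 4.55 CPM in the mutant-labelled libraries. The wild-type values were close together, whereas mutant-labelled replicate 2 was the highest of its group. The mean went from 10.8 ± 0.50 to 5.67 ± 1.25 CPM (SD, n = 3), which is -0.95 ± 0.16 in log2 terms (SE; edgeR adjusted p = 0.00694). *APL* was called in each of the 6 fits that left out 1 library, with log2 fold changes from -1.13 to -0.81.

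The transcript most like *APL* by BLAST was that of AT3G12730, at 72.2% identity over 454 bases, and the annotation names the same locus as the closest protein match. AT3G12730 had 3.66, 3.90 and 3.96 CPM in wild type and 1.56, 1.95 and 1.94 CPM in the mutant-labelled libraries. The groups did not overlap, and the log2 fold change of -1.08 ± 0.15 (edgeR adjusted p = 0.00469) was called in every fit that left out 1 library. Of 10 listed MYB genes related to *APL*, 9 were tested, 2 fell and 3 rose. Their median log2 fold change was 0.10 against 0.02 over all tested genes. The share that fell was 22.2%, beside 13.7% over all tested genes, and the share that rose was 33.3%, beside 11.2%. The other gene that fell was *MYR2*, at -0.97 ± 0.21 (edgeR adjusted p = 0.0150), and leaving out wild type replicate 2 ended its call (adjusted p = 0.0705). The gene of this list with the highest mean CPM, AT2G01060, differed by 0.13 ± 0.07 (edgeR adjusted p = 0.211) and was not called. The 3 that rose, all named because they were so few, were *PHL1*, AT3G24120 and AT2G20400, with log2 fold changes between 0.27 and 0.38. Of these, 0 were called when mutant-labelled replicate 1 or either of the wild type replicates 1 and 2 was left out, and 1 when mutant-labelled replicate 2 was. *MYR1* had no count in any library.

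*NAC086* (chromosome 5, 5675184 to 5678175, minus strand, 6 exons) had 46, 50 and 60 counts in wild type replicates 1 to 3 and 15, 7 and 9 counts in the mutant-labelled ones. In CPM these were 1.37, 1.11 and 1.21 against 0.449, 0.325 and 0.249. Even the lowest wild-type library stood well above the highest mutant-labelled library. The mean went from 1.23 ± 0.13 to 0.341 ± 0.10 CPM (SD, n = 3), 3.60-fold lower and -1.83 ± 0.28 in log2 terms (edgeR adjusted p = 0.00575). Of all tested genes, 0.567% had a lower log2 fold change. The call held in each fit that left out 1 library, with values from -2.11 to -1.62.

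*NAC045* (chromosome 3, 734892 to 738629, minus strand, 6 exons) was the least abundant member per annotated exon length. Its counts were 30, 46 and 33 in wild type replicates 1 to 3 and 13, 6 and 13 in the mutant-labelled ones, or 0.893, 1.02 and 0.666 CPM against 0.389, 0.279 and 0.360 CPM. A count of 6 has an exact 95% Poisson interval of 2.20 to 13.1, which covers counting error only. The groups did not overlap, and wild type replicate 3 was the wild-type library nearest to them. In log2 terms *NAC045* changed by -1.29 ± 0.29 (edgeR adjusted p = 0.0185). Leaving out mutant-labelled replicate 1 (adjusted p = 0.0525) or wild type replicate 1 (0.0631) or 2 (0.0826) ended the call, with log2 fold changes of -1.38, -1.27 and -1.14.

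The 3′ part of *NAC045* overlaps the glutathione transferase gene *GSTF11* on the opposite strand over 1096 bases (734892 to 735987). *GSTF11* had 4448, 6902 and 7263 counts in the wild-type libraries and 4160, 3186 and 5585 in the mutant-labelled libraries, in sum 171 times the counts of *NAC045* in wild type and 404 times in the mutant-labelled group. In CPM it was 144 ± 10.5 against 142 ± 15.9 (SD, n = 3), and its log2 fold change was -0.02 ± 0.10 (edgeR adjusted p = 0.924). The library kit kept strand per the labels, but whether counting used it is not given in the sources used here. How reads of the shared stretch were divided between both genes was not tested. No other member overlaps another annotated gene. The transcripts of *NAC045* and *NAC086* matched at 70.5% identity over 1517 bases, and for no member did BLAST find another transcript at 95% identity over at least 100 bases.

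*NEN4* (chromosome 4, 18474481 to 18475804, minus strand, 5 exons) had 27, 52 and 49 counts in wild type replicates 1 to 3 and 18, 10 and 9 in the mutant-labelled ones. In CPM these were 0.804, 1.15 and 0.989 against 0.539, 0.465 and 0.249. The groups did not overlap, although wild type replicate 1 and mutant-labelled replicate 1 came closest. The log2 fold change was -1.26 ± 0.33 (edgeR adjusted p = 0.0297), the largest SE among the members. It ran from -1.53 to -0.96 when single libraries were left out. The call held only without mutant-labelled replicate 1, and was lost without mutant-labelled replicate 2 (adjusted p = 0.0545) or 3 (0.0528) and without wild type replicate 1 (0.0596), 2 (0.114) or 3 (0.0629).

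The other 3 genes of the *NEN* family were tested and edgeR called 0 of them, with 1, *NEN2*, at an unadjusted p under 0.05 and 0 called by DESeq2. *NEN2* had 2.32, 2.42 and 2.46 CPM in wild type replicates 1 to 3 and 1.41, 0.883 and 1.91 CPM in the mutant-labelled ones. Its groups did not overlap, and its log2 fold change was -0.75 ± 0.26 (edgeR adjusted p = 0.0692). It was called without mutant-labelled replicate 3, the highest of its group (adjusted p = 0.0193). On the log2 scale *NEN1*, the closest match to *NEN4* at 75.6% identity over 275 bases, differed by -0.24 ± 0.12 (edgeR adjusted p = 0.173), and *NEN3* by -0.01 ± 0.11 (adjusted p = 0.932). Whether *NEN4* differed from its relatives was not tested.

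*NAC057* (chromosome 3, 6064272 to 6066180, plus strand, 3 exons) had 84, 123 and 110 counts in wild type replicates 1 to 3 and 38, 21 and 29 in the mutant-labelled ones. In CPM these were 2.50, 2.73 and 2.22 against 1.14, 0.976 and 0.804. Every wild-type library lay well above every mutant-labelled one. The log2 fold change was -1.35 ± 0.20 (edgeR adjusted p = 0.00547), and it was called in each fit that left out 1 library, with values from -1.49 to -1.22.

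*NAC028* (chromosome 1, 24520668 to 24524260, minus strand, 6 exons) had 186, 241 and 282 counts in wild type replicates 1 to 3 and 108, 57 and 95 in the mutant-labelled ones. In CPM these were 5.54, 5.34 and 5.69 against 3.23, 2.65 and 2.63. The spread within each group was small beside the gap between them. The log2 fold change of -0.96 ± 0.13 had the smallest SE of the 7 (edgeR adjusted p = 0.00449). It was called in each fit that left out 1 library, with values from -1.06 to -0.90.

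*NAC020* (chromosome 1, 20279507 to 20280952, minus strand, 3 exons) had 37, 67 and 63 counts in wild type replicates 1 to 3 and 28, 10 and 23 in the mutant-labelled ones. In CPM these were 1.10, 1.49 and 1.27 against 0.838, 0.465 and 0.638. The groups did not overlap, and mutant-labelled replicate 1 was nearest to wild type. The log2 fold change was -0.97 ± 0.26 (edgeR adjusted p = 0.0344). This call held only without mutant-labelled replicate 1, and was lost without mutant-labelled replicate 2 (adjusted p = 0.0777) or 3 (0.0643) and without wild type replicate 1 (0.0677), 2 (0.132) or 3 (0.0660), with log2 fold changes from -1.19 to -0.82 over the 6 fits.

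The transcripts of *NAC020*, *NAC028* and *NAC057* resembled those of *NAC045* and *NAC086*, with identities between 71.5% and 75.0% over 385 to 488 bases. Of 112 other annotated NAC family genes, 72 were tested, 16 fell and 14 rose, with a median log2 fold change of -0.03 against 0.02 over all tested genes. The share that fell was 22.2%, beside 13.7% over all tested genes, and the share that rose was 19.4%, beside 11.2%. Among the falls were *NAC073* at -1.11 ± 0.11 and *NAC012* at -0.84 ± 0.12, which regulate secondary walls, and *LOV1* at -0.88 ± 0.24. The rises included the senescence regulator *NAP* at 2.13 ± 0.33, *NAC019* at 2.17 ± 0.40 and *NAC032* at 1.99 ± 0.43. When single libraries were left out, *LOV1* lost its call in 4 of the 6 fits (mutant-labelled replicates 1 and 2, wild type replicates 1 and 2; adjusted p up to 0.124). *NAC032* lost it in 3 (mutant-labelled replicate 2, wild type replicates 1 and 2; up to 0.0852) and *NAC019* in 1 (wild type replicate 2; 0.0554). The number that fell was 10, 8 and 9 without mutant-labelled replicate 1, wild type replicate 1 and wild type replicate 2, and the number that rose was 7 and 6 without wild type replicate 1 and 2.

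**Figure D2:**
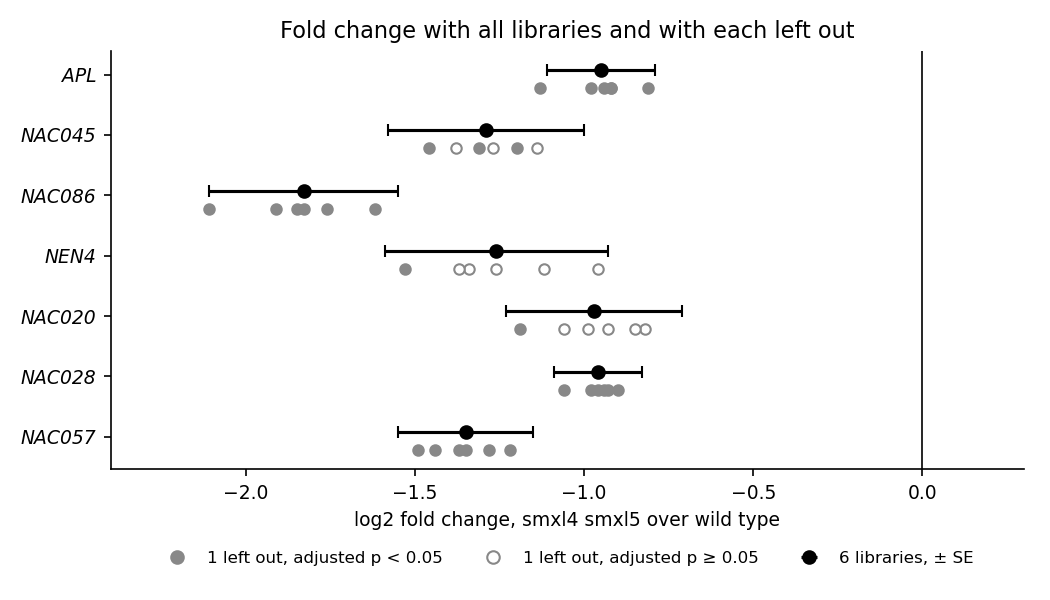
Log2 fold change of mutant-labelled over wild type for each of the 7 genes. Bars give the SE derived from the test on all 6 libraries. Each fit that left out 1 library has 1 small point, filled where the gene was called. All points lie below 0, and open points occur for *NAC045*, *NEN4* and *NAC020* alone.

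Leaving out wild type replicate 1 or wild type replicate 2 left 4 members called, *APL*, *NAC086*, *NAC028* and *NAC057*, where 7.51% and 6.37% of all tested genes were called lower. Without mutant-labelled replicate 1 the number was 6 beside 7.28%, without mutant-labelled replicate 2 it was 5 beside 10.5%, without mutant-labelled replicate 3 it was 5 beside 15.3%, and without wild type replicate 3 it was 5 beside 13.3%. The share of genes called lower was 13.9% with DESeq2 size factors, 10.8% with no filter and 9.86% with the replicate number as a term. The 3 members that lost their call, with *NAC086*, had the lowest counts. DESeq2 called all 7, with 13.7% of the genes it tested called lower. The smallest fall among the members was that of *APL*, at -0.95. Of all tested genes, 3.43% were called lower at that size or beyond, a limit taken from the members, which all meet it by construction.

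**Figure D3:**
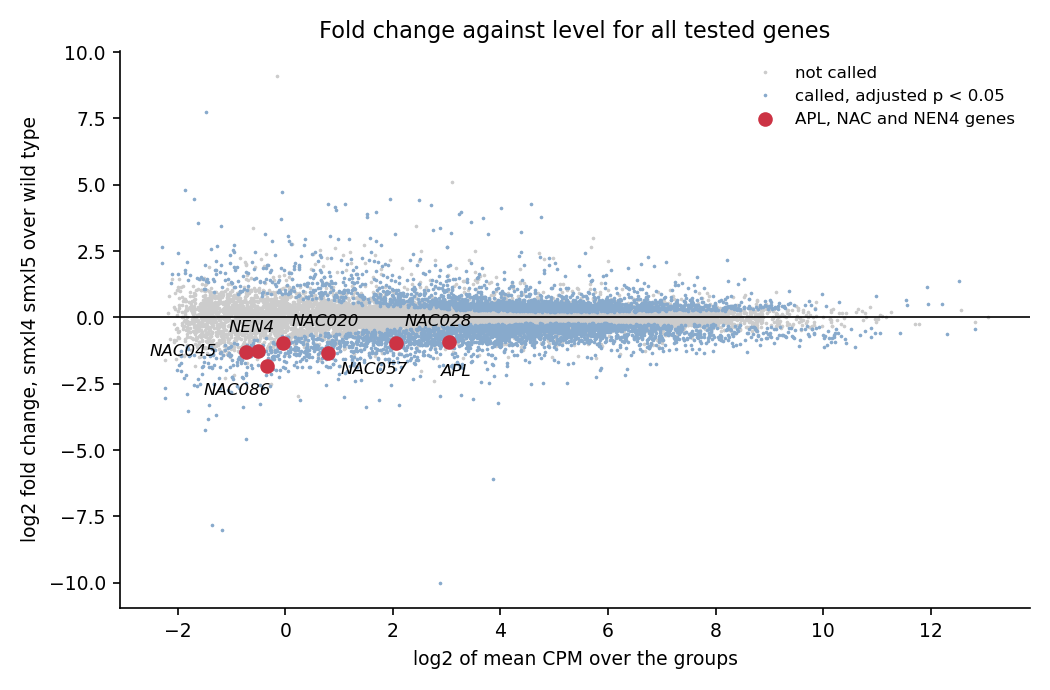
Log2 fold change of mutant-labelled over wild type against log2 mean CPM for all 20296 tested genes, with the 7 members marked. The members lie at low to middle abundance and below 0, from -1.83 for *NAC086* to -0.95 for *APL*.

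Per length of exon, expressed as RPKM (CPM per kilobase), *APL* was the most abundant member in wild type at 6.76 ± 0.31 (SD, n = 3). *NAC028* followed at 2.39 ± 0.075, *NAC057* at 2.04 ± 0.21, *NAC020* at 1.09 ± 0.16, *NEN4* at 1.02 ± 0.18, *NAC086* at 0.671 ± 0.072 and *NAC045* at 0.308 ± 0.064 RPKM. Of these neighbours only *NAC020* and *NEN4* had overlapping ranges. The order was the same in the mutant-labelled libraries, from 3.54 ± 0.78 RPKM for *APL* to 0.123 ± 0.020 RPKM for *NAC045*. There the ranges of *NAC057* and *NAC020*, of *NAC020* and *NEN4*, and of *NAC086* and *NAC045* overlapped. The length of *NAC045* takes in any exon bases shared with *GSTF11*. Its place in the order could therefore depend on how reads of that stretch were counted.

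To compare the other members with *APL* within a library, the log2 ratio of their CPM, each with 0.5 added, was taken. The mutant-labelled minus wild-type difference of this ratio lay between -0.15 for *NAC086* and 0.25 for *NAC020*. In none of the 6 comparisons did an exact two-sided permutation test, whose smallest possible p is 0.1, give less than 0.2 (0.72 or more after Benjamini-Hochberg adjustment). Leaving out mutant-labelled replicate 2 raised the difference of *NAC020* to 0.52, of *NAC045* to 0.42, of *NEN4* to 0.31 and of *NAC028* to 0.23, and brought *NAC086* to 0.01 and *NAC057* to 0.02. Without mutant-labelled replicate 1 the differences lay between -0.25 and 0.16, and without mutant-labelled replicate 3 between -0.20 and 0.20. Leaving out 1 wild-type library gave values between -0.22 and 0.32. The added 0.5 is of the size of the low values themselves. With nothing added, a choice made after seeing the data, the ratio of *NAC086* to *APL* was -3.60, -4.43 and -4.19 in the mutant-labelled libraries and -2.91, -3.30 and -3.22 in wild type. These did not overlap and differed by -0.93 (exact permutation p = 0.1, adjusted 0.6), and the other 5 members differed by -0.40 to -0.01.

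The members did not share 1 order of libraries within the mutant-labelled group. *APL* was highest in replicate 2, while replicate 1 was highest for the other 6, and *NAC045* and *NAC020* were lowest in replicate 2. As a description over the 6 libraries, profiles were compared by the root mean square difference of log2(CPM + 0.5) centred on the mean of each gene. The members most alike were *NAC086* and *NAC057*, at 0.111, and *NAC086* and *NAC028*, at 0.116. The least alike were *APL* and *NAC020*, at 0.307. The added 0.5 flattens the profiles of low members such as *NAC086*, so a small difference here is not an equal fall. *NAC086* and *NAC028* had log2 fold changes of -1.83 and -0.96.

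Over 18525 genes whose mean reached 1 CPM, the profile nearest to *APL* was that of the acyl-transferase family gene AT3G62160 (root mean square difference 0.057), then *APS2* (0.067). Nearest to *NAC086* were AT5G20870 (0.055) and AT5G67460 (0.077), both annotated as O-glycosyl hydrolases of family 17. *NAC045* was nearest to *MDP40* (0.028) and AT3G26490 (0.037), and *NEN4* to AT3G17380 (0.052) and *MEE47* (0.053). *NAC028* was nearest to AT1G21510 (0.043) and the remorin family gene AT1G13920 (0.057). *NAC057* was nearest to AT1G29380 (0.059) and *DMP2* (0.061), and *NAC020* to AT3G26130 (0.062) and AT1G61760 (0.075). These profiles include the difference between the groups, and the added 0.5 flattens those of the low members. A near profile is therefore not an equal fall. *MDP40* and AT3G26490 were at -0.83 and -0.71 in log2 terms, beside -1.29 for *NAC045*. AT3G17380 and *MEE47* were at -0.80 and -0.73, beside -1.26 for *NEN4*. AT5G20870 and AT5G67460 were at -1.20 and -1.17, beside -1.83 for *NAC086*. By contrast, AT3G26130 and AT1G61760 were at -0.94 and -0.97, beside -0.97 for *NAC020*.

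Of 18 listed regulators of early phloem, 16 were tested, 5 fell and 0 rose, with a median log2 fold change of -0.32. The list includes the targeted genes *SMXL4* and *SMXL5*, which were not called with all libraries. The share that fell was 31.2%, where 13.7% of all tested genes fell and 11.2% rose. *DOF6*, a DOF transcription factor, fell from 3.57, 3.66 and 3.45 CPM in wild type to 0.778, 1.12 and 0.748 CPM, or -2.04 ± 0.19 in log2 terms (edgeR adjusted p = 0.00174). *BRX*, which acts in protophloem differentiation, fell at -0.94 ± 0.18 and the signalling peptide gene *CLE25* at -0.53 ± 0.14. The other falls were the DOF factor gene *HCA2* at -0.52 ± 0.10 and the receptor kinase gene *BAM3* at -0.46 ± 0.07. *DOF2.4*, AT5G02460 and *TMO6*, also DOF genes of this list, were not called with all libraries. Of these, leaving out 1 library called *DOF2.4* alone, without wild type replicate 3 (-0.56, edgeR adjusted p = 0.032). *CLE25* lost its call in 4 of the 6 fits that left out 1 library (mutant-labelled replicates 1 and 3, wild type replicates 2 and 3; adjusted p up to 0.112), and *BRX* (0.0540) and *HCA2* (0.0509) without wild type replicate 2. Without that library the number that fell was 2. Without mutant-labelled replicate 3 the number that rose was 1, the targeted gene *SMXL4* at 0.37 (edgeR adjusted p = 0.049). *CLE45* and *LHW* had no count in any library.

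Of 5 listed products of sieve elements, 4 fell (80.0%) and 1 rose (20.0%), with a median of -1.39. Over all tested genes 13.7% fell and 11.2% rose. The sieve element filament genes *SEOR2* and *SEOR1* fell at -1.75 ± 0.13 and -1.43 ± 0.13, *ENODL9* at -1.39 ± 0.08, and the callose synthase gene *CALS7* at -0.57 ± 0.17. The call of *CALS7* was lost without mutant-labelled replicate 1 (adjusted p = 0.0961), wild type replicate 1 (0.125) or 2 (0.140), which left 3 falls. *CHER1*, a choline transporter-like gene of sieve plate formation, rose at 0.30 ± 0.06, a call lost without mutant-labelled replicate 1 (adjusted p = 0.0543) or wild type replicate 2 (0.0682). The summed level of the list was 163 to 205 CPM in the mutant-labelled libraries and 391 to 427 CPM in wild type, beside 9.48 to 12.2 and 22.5 to 23.8 CPM for the 7 members. Of 10 genes of companion cells and phloem parenchyma, 4 fell (40.0%) and 3 rose (30.0%), with a median of -0.05. Their summed levels were 862 to 985 against 918 to 1010 CPM. The sucrose carrier gene *SUC2* fell at -0.82 ± 0.11, while *SWEET11* and *SWEET12*, which export sugars from cells, rose at 4.48 ± 0.27 and 4.44 ± 0.25. The iron transporter gene *OPT3*, with the highest mean CPM of the list, had a value of -0.06 ± 0.12 and was not called.

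Markers of other stem tissues moved in the same libraries, where 13.7% of all tested genes fell and 11.2% rose. Of 7 xylem markers 5 fell, with a median of -0.66 and a summed level of 2080 to 2580 against 3240 to 4020 CPM, and 3 fell when mutant-labelled replicate 1 or either of the wild type replicates 1 and 2 was left out. The cellulose synthase genes *IRX5* and *IRX1* fell at -0.77 ± 0.13 and -0.68 ± 0.14 and the protease gene *XCP2* at -0.83 ± 0.14, and *IRX1* was among the calls lost. All 3 cambium markers fell with all libraries, with a median of -0.52 and 369 to 446 against 521 to 586 CPM. *ANT* at -0.93 ± 0.08 and *WOX4* at -0.52 ± 0.09 were called whichever library was left out. *PXY*, at -0.37 ± 0.11, lost its call without mutant-labelled replicate 1 or 3 or wild type replicate 1 or 2 (adjusted p up to 0.138). All 4 chlorenchyma markers fell with all libraries, with a median of -0.66 and 7540 to 9530 against 11900 to 13000 CPM. *CA1* at -2.49 ± 0.24, *RBCS1A* at -0.76 ± 0.13 and *LHCA1* at -0.57 ± 0.09 were called whichever library was left out. *CAB1*, at -0.45 ± 0.12, lost its call without mutant-labelled replicate 1 or any 1 of the wild-type libraries (adjusted p up to 0.0833). Of 4 epidermis markers 1, *CER1*, fell, with a median of -0.43 and 69.0 to 97.1 against 122 to 189 CPM, and 3 and 2 fell without mutant-labelled replicate 3 and wild type replicate 3. No marker of these 4 lists was at 0 in all libraries, and 2 xylem markers, *NAC101* and *VND7*, were also among the other NAC family genes. The part of tissue composition in the fall of the 7 genes was not tested.

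**Figure D4:**
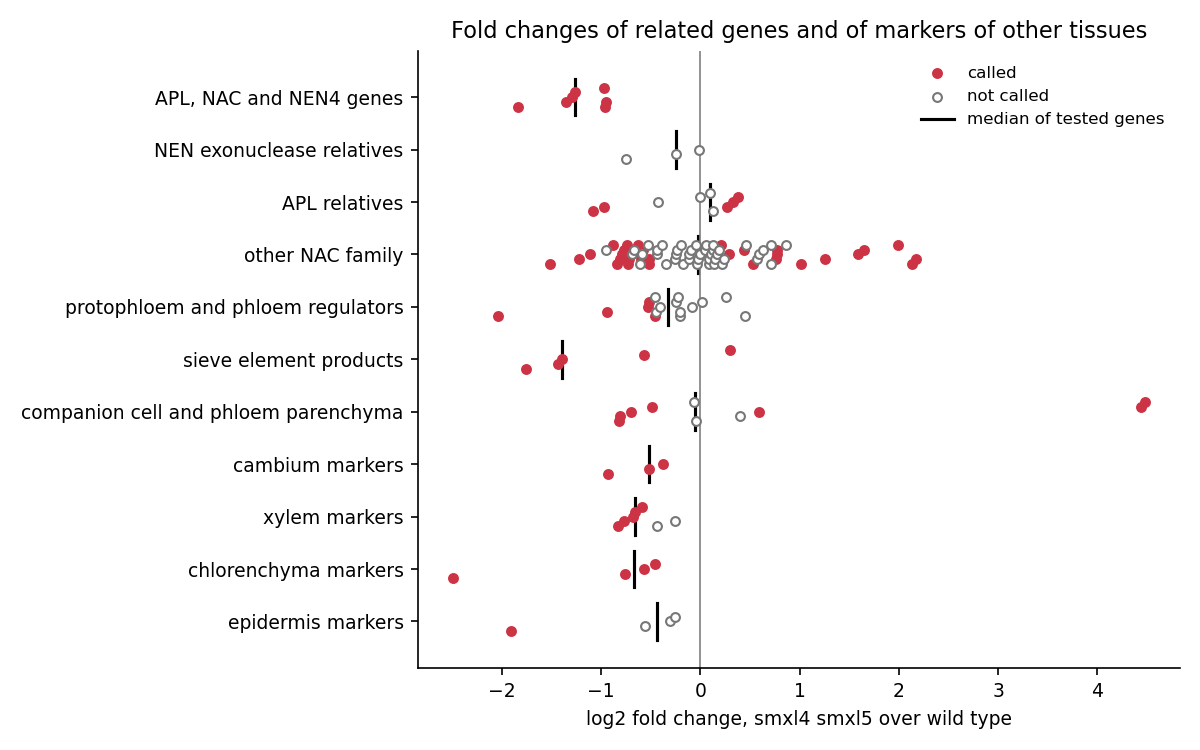
Log2 fold change of mutant-labelled over wild type for every tested gene of each list, 1 strip a list, with the median of each list marked. The 7 members have a median of -1.26, the sieve element products -1.39, the tissue marker lists -0.43 to -0.66, and the other NAC family genes -0.03.

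The authors' deposited table, whose fold changes are wild type over mutant, gave all 7 members as higher in wild type. That sign was read from these same counts, so the shared direction is no separate check. For each member the change was smaller in size than in the edgeR fit, where *NAC086* was at -1.83 and *NAC020* at -0.97. It was also smaller than in the DESeq2 fit made here, where *NAC086* was at -1.86 and *NAC020* at -0.98. The reason was not tested. In that table *NAC086* had a log2 fold change of 1.24 (adjusted p = 0.000247), *NAC057* 1.11 (5.55e-05), *APL* 0.88 (5.18e-06) and *NAC028* 0.88 (8.81e-06). The authors' deposited table gave *NAC045* 0.83 (adjusted p = 0.0268), *NEN4* 0.81 (0.0306) and *NAC020* 0.71 (0.0428). These 3 genes, which had the highest adjusted p in the authors' deposited table, were also the 3 whose edgeR call depended on single libraries. Both rest on the same counts, and these 3 also lay nearest the threshold in edgeR, so the match is no separate check.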

How the data were processed

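RNA was sequenced from 6 stem-base samples in 2 groups of 3. Raw counts of reads per locus were deposited, and so was the authors' own comparison. Its columns, per the file headers, are the normalized mean count (signal), the log2 fold change and its error, a Wald score (not used) and p-values with their adjusted values. The submitters' processing notes name TAIR10, TopHat2 2.0.14, FastQC 0.11.7 and DESeq2. How reads were counted, with which annotation and strand setting, is not given in the sources used here. The sign of the deposited fold change was read from the counts.

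Counts were tested with edgeR 4.0.16 in R 4.3.3 (filterByExpr with minimum count 10 and minimum total 15, TMM, robust quasi-likelihood, two-sided, Benjamini-Hochberg over 20296 genes, prior count 0.125, threshold 0.05), after a test on simulated data. CPM values use TMM-scaled library sizes. The SE of a fold change was derived from its test, as its size divided by the square root of the F statistic. It is therefore no measure of precision apart from that test. DESeq2 1.42.0, other size factors, no filter, a replicate block and leaving out each library were alternatives. Gene models, lengths and sequences came from RefSeq TAIR10.1, where 32835 of 33602 loci were found, and similarity from BLAST 2.17.0. Library totals of 21364628 to 49929595 counts set the precision, and intervals cover counting error only. Each sample pooled fragments, so p-values measure the spread between pooled samples.

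Members and lists were chosen with earlier results of these data known. Named genes were the members, the 3 called genes of largest change and the most abundant gene of each list, the 2 nearest profiles of each member and the 3 largest rises and falls of other NAC genes with at least 1 CPM. Others, named to complete counts of 5 or fewer, were chosen after their values were seen.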

Additional observations from a re-analysis of the deposited data

How the results depend on the processing

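Every member had a negative log2 fold change under all 10 alternatives to the edgeR fit. *APL*, *NAC086*, *NAC028* and *NAC057* were called under each of them. With DESeq2 size factors, no filter or DESeq2, all 7 were called. Same-numbered libraries did not deviate together (correlations of 0.044, 0.069 and -0.032 over 20296 genes), so the numbers were not taken to pair them. With the replicate number as a block, 4 members were called, 3356 genes in all and 1355 higher, and *NAC045* (-1.27, adjusted p = 0.0507), *NEN4* (-1.26, 0.0663) and *NAC020* (-0.97, 0.0864) were not called, nor was 1 of the 4 chlorenchyma markers. Leaving out 1 library gave log2 fold changes of -1.46 to -1.14 for *NAC045*, -1.53 to -0.96 for *NEN4* and -1.19 to -0.82 for *NAC020*. It gave 4 to 6 members called lower, 1902 to 5558 genes called in all, 1305 to 3135 lower and 597 to 2423 higher, and 2 to 8 called higher over all the lists other than the NAC family, where 7 were called with all libraries. The fewest genes were called without wild type replicate 2.

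The ratio to *APL* depended on the pseudocount. With 0.1 in place of 0.5 the difference reversed for *NAC045* (-0.16) and *NEN4* (-0.15), and for *NAC086* it was -0.67. With none it was -0.36 for *NAC045*, -0.34 for *NEN4*, -0.07 for *NAC020* and -0.01 for *NAC028*. Depth limits *NAC045*, *NAC086* and *NEN4*, which had 6 to 18 counts in each mutant-labelled library.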
